A study of Caenorhabditis elegans with 3 samples.

Results

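ELT-3, a GATA-type transcription factor of the worm epidermis, had peaks in front of 5 genes that encode subunits of the vacuolar ATPase (V-ATPase), a proton pump, in whole Caenorhabditis elegans larvae of the first stage (L1). The 5 genes are vha-1, vha-8, vha-10, vha-12 and vha-13, out of 20 genes with a vha- name and out of 688 protein-coding genes with such a peak among 19973. They were chosen by measured values of these data. Each has a peak summit between 1000 bp upstream and 200 bp downstream of its annotated 5′ end, in the list that the authors had thresholded by IDR (irreproducible discovery rate, a measure of agreement between replicates). That window is called the promoter window here. The presence, position and strength of these peaks are therefore given as a description, with no test.

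The chromatin came from strain OP75, an unc-119(ed3) III mutant line with the transgene wgIs75, which expresses ELT-3 with a C-terminal GFP-FLAG tag. The larvae were of mixed sex and were taken whole, so the peaks are not tied to a tissue. There were 3 libraries in 1 group and 2 biological replicates. The single library of replicate 1 is 1 sample, and the pair of technical libraries of replicate 2, which were aligned jointly, is the other. There is no second condition, and the control that the labels point to was not analysed here. The peak lists give a signal per peak in the authors' own units and no read counts, so the depth is unknown. Each list has its own signal scale, so signals were ranked within a list. The IDR list held exactly the 1202 strongest peaks of the list pooled from both replicates. A replicate 2 peak overlapped 117 of these 1202 (9.73%), so a place in the IDR list does not mean a peak in both replicates. Replicate 1 and pooled signals are set beside those of the IDR list as a description. Intervals given below cover counting error only.

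The V-ATPase has a soluble V1 sector, which hydrolyses ATP, and a membrane-embedded V0 sector, through which protons pass. It acidifies lysosomes and other compartments of the secretory and endocytic routes in all animal cells. In the worm epidermis it also sits at the apical membrane, where the V0 sector takes part in secretion of cuticle components. ELT-3 acts mainly in that tissue, and GATA factors bind DNA at short sequences with a GATA core.

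The DNA under 3 of the member peaks is shown because these summits lie between genes. The runs leave out vha-10 and vha-13, whose matches are given further on, so they do not show the full range of GATA sites among the members. Each run is the 201 bp centred on the summit, 5′ to 3′ on the plus strand of WBcel235, the assembly also called ce11, read from the RefSeq copy of that genome. All 3 genes lie on the plus strand, downstream of the printed run. The vha-1 sequence is chrIII:9780712-9780912, that of vha-8 is chrIV:6790531-6790731 and that of vha-12 is chrX:4190663-4190863. Capitals mark every GATA core on either strand (GATA or TATC), widened to the longer GATA-factor motif where present, and every GAGAC on either strand (GAGAC or GTCTC). The longer motif is AGATAA or AGATAG, or TGATAA or TGATAG, and is known as WGATAR. GAGAC was picked after these sequences had been seen.
vha-1: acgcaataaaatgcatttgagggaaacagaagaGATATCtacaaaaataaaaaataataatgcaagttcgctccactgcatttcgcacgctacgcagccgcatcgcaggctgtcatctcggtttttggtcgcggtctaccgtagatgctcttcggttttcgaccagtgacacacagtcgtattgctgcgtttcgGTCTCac
vha-8: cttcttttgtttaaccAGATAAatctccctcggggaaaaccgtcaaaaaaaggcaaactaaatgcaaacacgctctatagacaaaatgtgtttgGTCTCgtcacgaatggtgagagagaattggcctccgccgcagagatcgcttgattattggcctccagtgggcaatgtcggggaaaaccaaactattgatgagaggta
vha-12: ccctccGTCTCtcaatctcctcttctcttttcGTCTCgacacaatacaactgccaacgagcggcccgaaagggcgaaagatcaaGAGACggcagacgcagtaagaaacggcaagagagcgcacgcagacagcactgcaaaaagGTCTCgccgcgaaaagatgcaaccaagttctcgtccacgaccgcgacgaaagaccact

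The vha-1 run holds a palindromic GATATC, which reads as a GATA core on both strands, and a GTCTC near its downstream end. The vha-8 run has an AGATAA on its upstream side and a GTCTC at 2 bp from the summit. The vha-12 run has no GATA core and 4 matches to GAGAC, the nearest at 12 bp from the summit.

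The proton-conducting V0 sector was represented by vha-1 alone, which encodes a proteolipid c subunit of the ring that turns in the membrane. Its peak (III, 9780664 to 9780959) had the highest signal of the 5, 82.6, and ranked 111 of 1202 in the IDR list. Replicate 1 alone gave a signal of 81.3 at rank 115 of 10775, with its summit at the same base pair. Replicate 2 had no peak there, and its nearest summit was 5506 bp away. The summit lay at -442 bp from the 5′ end of vha-1 (III, 9781254 to 9781763, plus strand), between genes.

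The other members all encode V1 subunits. The A and B subunits, which alternate in the ring that holds the ATP-binding sites, are encoded by vha-13 and vha-12. The peak of vha-12 (X, 4190615 to 4190910) had a signal of 70.9 at rank 177 of the IDR list and of 70.3 at rank 178 in replicate 1. Its summit lay at -331 bp, the closest of the 5 to its gene (X, 4191094 to 4193144, plus strand). The peak of vha-13 (V, 14350983 to 14351278) had a signal of 67.0 at rank 221 and of 68.7 at rank 193 in replicate 1. Its summit lay at -578 bp, the farthest of the 5 from its gene (V, 14351709 to 14354422, plus strand). The catalytic and the nucleotide-binding subunit thus had peaks of similar signal at the opposite ends of the range of distances.

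The E and G subunits form the peripheral stalks that hold V1 to V0, and are encoded by vha-8 and vha-10. The vha-8 peak (IV, 6790483 to 6790778) had a signal of 72.7 at rank 164, with a summit at -443 bp from the gene (IV, 6791074 to 6792455, plus strand). In replicate 1 its signal was 67.5 at rank 210. The vha-10 peak (I, 5610513 to 5610808) was the weakest, with a signal of 41.8 at rank 856 and of 39.5 at rank 969 in replicate 1. Its summit lay at -391 bp from the gene (I, 5609341 to 5610270, minus strand). The signals of these stalk genes differed more than those of the A and B genes did.

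The members fell into a group of 4 with signals from 67.0 to 82.6, all within the first 300 ranks of the IDR list, and vha-10, which lay below the list's median of 48.0. The highest signal was 1.97 times the lowest. The members' median was 70.9, against 48.9 over all 688 genes with an IDR promoter summit. Every member peak had the highest −log10 q-value of its list, 3.32 (q-value 0.000484), which 1034 of the 1202 IDR peaks share, so the q-value does not order them.

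**Figure D1:**
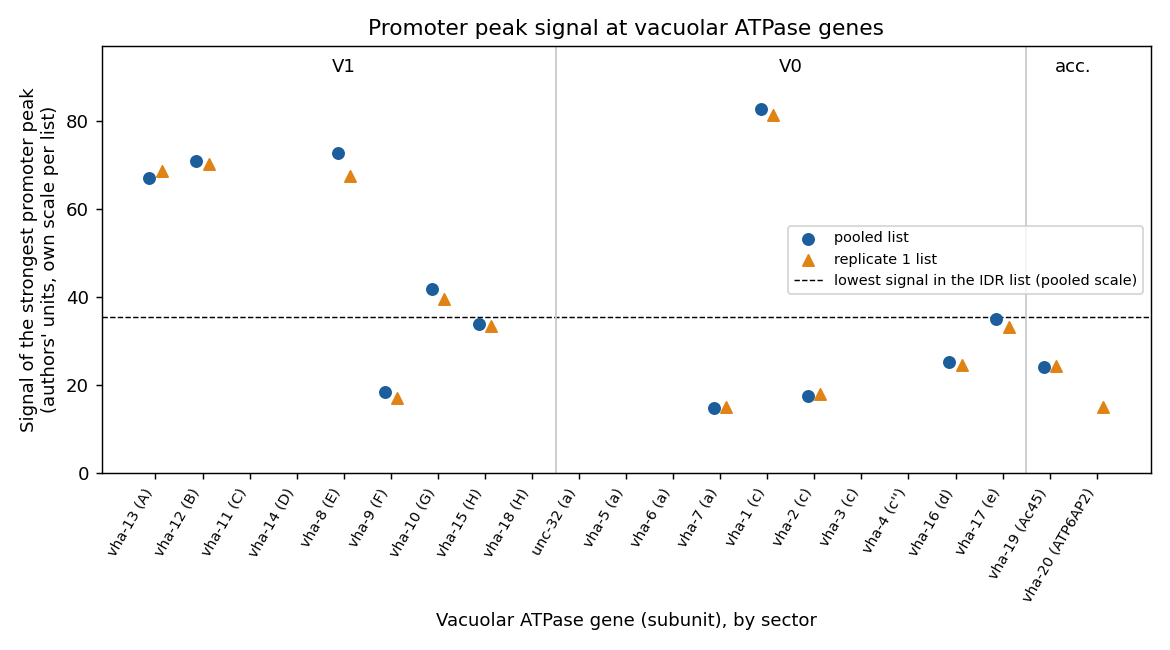
Signal of the strongest promoter peak (authors' units, each list on its own scale) at every V-ATPase gene, ordered by sector, with "acc." for the accessory subunits. Circles are the pooled list, triangles replicate 1, and the dashed line is the lowest signal of the IDR list, 35.5. The 5 members lie above the line, from 41.8 to 82.6, and genes without a symbol had no summit of either list in the window.

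All 5 member peaks were overlapped by a replicate 1 peak whose summit was at the same base pair, and replicate 1 signals differed from the IDR signals by -7.19% (vha-8) to 2.60% (vha-13). Over all IDR peaks the median difference was -0.617% (quartiles -2.33% and 0.820%). The values of vha-8, vha-10 (-5.52%) and vha-13 lay outside these quartiles, and those of vha-1 (-1.60%) and vha-12 (-0.789%) within them. Each list has its own scale, so these percentages are a description only. IDR and pooled signals were identical for each member, and the pooled alignments contain the reads of replicate 1, so the 2 sets of signals are not independent. Replicate 2 overlapped 0 of the 5 member peaks, and 117 of all 1202 IDR peaks (9.73%). The distance from a member's summit to the nearest replicate 2 summit was 1261 bp for vha-8, 5506 bp for vha-1, 11834 bp for vha-12, 14502 bp for vha-13 and 34739 bp for vha-10, against a median of 6867.5 bp over all IDR peaks. The replicate 2 peak near vha-8 lay inside the gene, at 818 bp from the 5′ end, with a signal of 2.82 on that list's scale, where the median was 2.65. The replicate 2 list also differed in form. Its peaks were all 596 bp wide, against at most 296 bp in replicate 1. Its lowest −log10 q-value was 2.43, against 0.0177 in replicate 1. Whether these differences bear on the missing overlaps was not tested. Whether the libraries of replicate 2 were deep enough to show peaks of this size could not be measured from the lists.

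In the pooled and replicate 1 lists more V-ATPase genes had a summit in the window. The deposited records describe both of these lists, and that of replicate 2, as peaks and background. The 5 of 20 genes in the IDR list stand beside 3.44% of all protein-coding genes, a count that the choice of members fixes. The pooled list had a summit at 12 of 20 vha- genes, against 17.9% of all protein-coding genes. The replicate 1 list had one at 13 of 20, against 18.7%. The replicate 2 list had one at 0 of 20, against 5.3% of all protein-coding genes. At that share 1.06 of 20 genes would have one, so a count of 0 lies near the background. The pooled and replicate 1 counts include the members, which have their peaks there by the rule. Among the other 15 genes the counts were 7 in the pooled list and 8 in replicate 1, and these 15 are by construction the genes without an IDR summit.

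Of the other genes, vha-17 and vha-15 came nearest to the IDR list. The lowest IDR signal was 35.50, at rank 1202 of the pooled list, and the first pooled peak outside had 35.48. vha-17 encodes the small e subunit of V0, known from worm epidermal cells as a gene whose loss lets too many of them fuse. Its pooled peak (IV, 9321317 to 9321612) had a signal of 35.0 at rank 1241 and a q-value of 0.00605, at -336 bp, and replicate 1 gave 33.2 at rank 1347. vha-15 encodes an H subunit, which regulates V1. Its pooled peak (X, 2237502 to 2237797) had a signal of 33.9 at rank 1326 and a q-value of 0.00868, at -261 bp, and replicate 1 gave 33.5 at rank 1327. Both peaks were therefore outside the list, with a signal below that of vha-10, the weakest member. The vha-17 summit also lay in the promoter window of the divergent F49C12.12, at -376 bp from it, so both 5′ ends were about equally near.

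The sequences around these summits are shown for comparison with the members, as 201 bp of the plus strand of WBcel235 with the same use of capitals. The vha-15 run is chrX:2237550-2237750 and the vha-17 run is chrIV:9321365-9321565, and both genes lie on the plus strand.
vha-15: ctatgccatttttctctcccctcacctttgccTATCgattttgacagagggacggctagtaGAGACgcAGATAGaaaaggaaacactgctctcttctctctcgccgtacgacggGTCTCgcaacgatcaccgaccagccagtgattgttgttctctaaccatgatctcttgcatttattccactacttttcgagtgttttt
vha-17: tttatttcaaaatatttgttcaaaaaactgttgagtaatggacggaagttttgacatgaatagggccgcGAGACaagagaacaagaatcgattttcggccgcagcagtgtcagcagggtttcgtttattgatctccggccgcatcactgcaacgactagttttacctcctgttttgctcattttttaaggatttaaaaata

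The vha-15 run holds an AGATAG at 27 bp from the summit, which none of the 5 members has at that distance, and GAGAC matches at 14 bp and 35 bp. The vha-17 run holds 1 GAGAC match at 27 bp and no GATA core.

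The remaining pooled summits were weaker and lay in the region of the list with high q-values. The d subunit gene vha-16 had a signal of 25.4 at rank 2364 (-132 bp), and the gene of the accessory subunit Ac45, vha-19, had 24.2 at rank 2597 (-332 bp). The F subunit gene vha-9 had 18.4 at rank 5143 (-245 bp) and the c subunit gene vha-2 had 17.5 at rank 5923 (-99 bp). The a subunit gene vha-7 had 14.8 at rank 10065 of 10082 (-7 bp), with a q-value of 0.960. Over the 7 genes the median was 24.2, against 18.5 over the whole pooled list, and 4 of the 7 lay above the list's median. vha-20, whose product is the homologue of the renin receptor ATP6AP2, had a summit in replicate 1 only, at rank 8922 of 10775 (-733 bp).

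**Figure D2:**
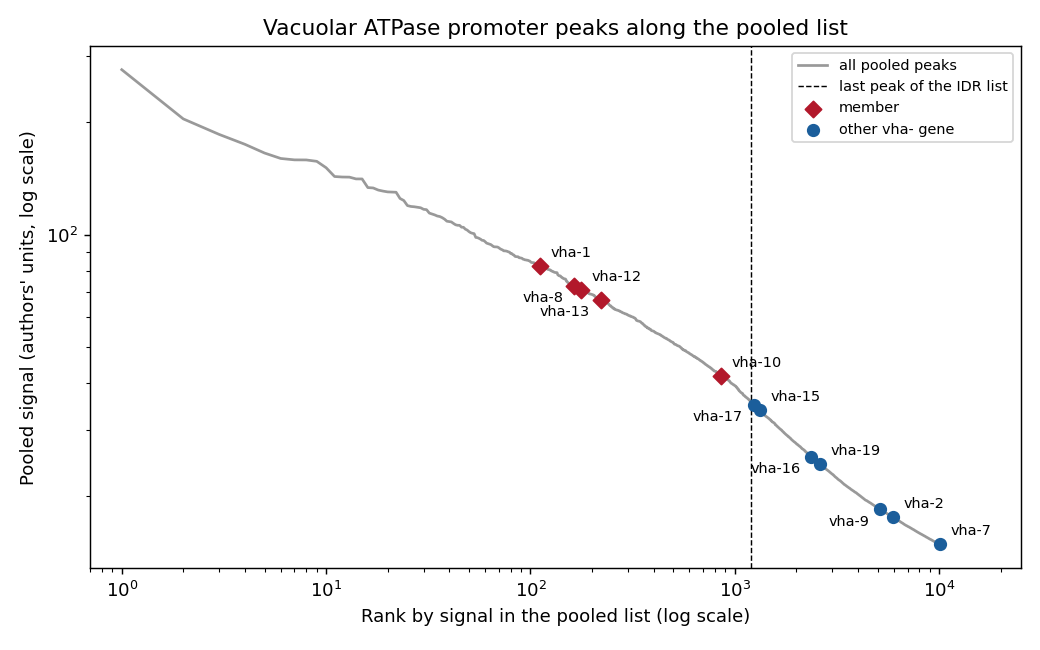
Signal against rank (both log scales) for the 10082 peaks of the pooled list, as a line, with the strongest promoter peak of each V-ATPase gene marked (diamonds, members; circles, other vha- genes). The 4 strongest members lie between ranks 111 and 221 and vha-10 at rank 856, and vha-17 and vha-15 lie just past the dashed line at rank 1202.

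By sector, 4 of 9 V1 genes had a summit of the IDR list in the window and 6 had one of the pooled list. Of 10 V0 genes, with unc-32 counted, 1 carried an IDR summit and 5 a pooled one, and of the accessory genes vha-19 and vha-20 0 had an IDR summit and 1 a pooled one. The V1 genes with no pooled summit were vha-11 (C subunit), vha-14 (D subunit) and vha-18 (H subunit). Among the c ring genes, vha-3 and the c″ gene vha-4 had none. Over all protein-coding genes the shares were 3.44% with an IDR summit and 17.9% with a pooled one. The difference between sectors was not tested, since the members were chosen by the same peaks. The a subunit is encoded by 4 genes, and 0 of these had such an IDR summit, a count near the background for 4 genes. The a subunit genes are vha-5, which acts in apical secretion by the epidermis, vha-6 of the intestine, vha-7, and unc-32, best known from neurons.

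Several IDR peaks lay upstream of the window of other V-ATPase genes. The IDR peak nearest to vha-5 was at -1870 bp, with a signal of 53.7 at rank 434 and 1 WGATAR match within 50 bp of its summit. The nearest protein-coding 5′ end was that of F35H10.5, but the summit lay 1330 bp downstream of it and inside no protein-coding gene. A weaker pooled peak stood at -1017 bp of vha-5, only just outside, with a signal of 25.4 at rank 2358 and also 1 such match. The c subunit gene vha-3 had an IDR peak at -1069 bp, with a signal of 41.6 at rank 870, whose summit lay in the 5′ UTR of Y38F2AL.12 on the other strand. That summit was at 441 bp from the 5′ end of Y38F2AL.12, and at -22 bp from the noncoding RNA gene Y38F2AL.10 as annotated on the minus strand. unc-32 had one at -1324 bp, with a signal of 52.4 at rank 470, which lay at -160 bp from lin-9, a gene of the DREAM repressor complex. The replicate 2 list had a peak in the window of unc-32, at -191 bp with a signal of 2.18. vha-2 starts 400 bp past the end of vha-1 on the same strand, and the vha-1 summit lies at -1352 bp from it.

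**Figure D3:**
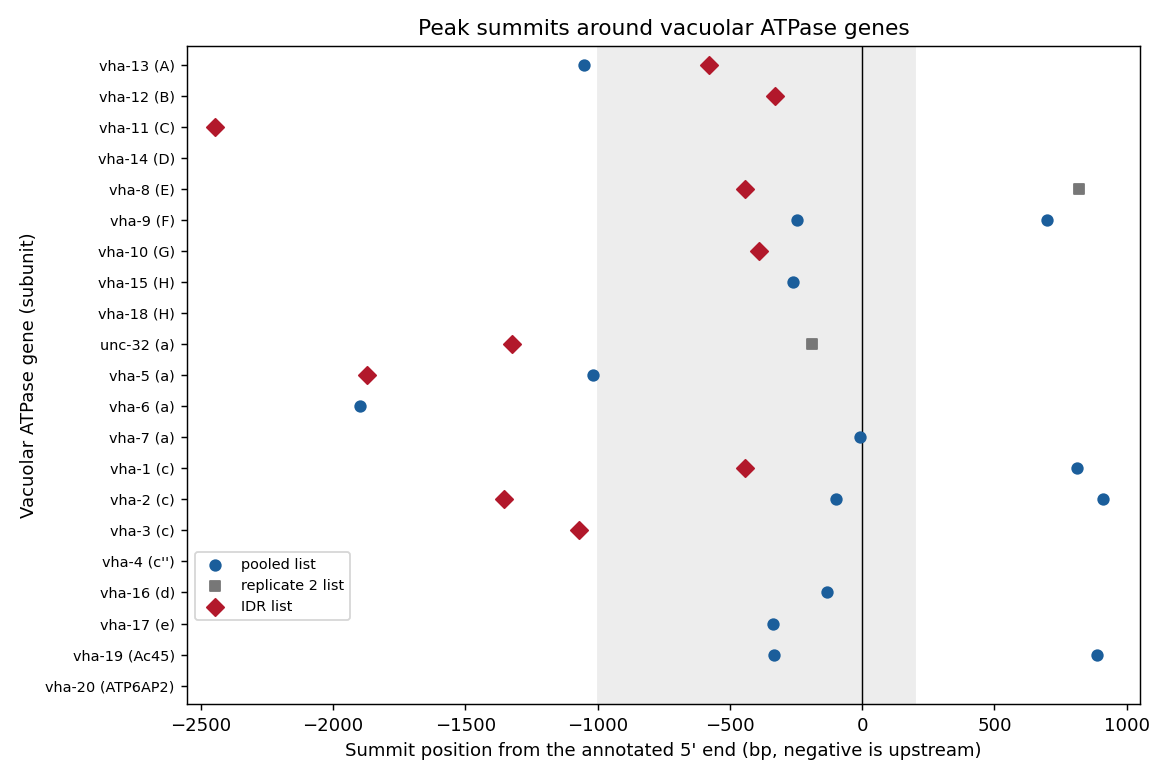
Summit positions (bp from the annotated 5′ end, negative upstream) around every V-ATPase gene. Diamonds are IDR peaks, circles pooled peaks outside the IDR list, squares replicate 2 peaks, and the grey band is the promoter window. The 5 members lie between -578 and -331 bp, the IDR peaks of vha-2 and vha-11 are those of vha-1 and vha-3 seen from the next gene, and other genes have IDR summits only to the left of the band.

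The members' summits stood farther upstream than those of most genes with an IDR promoter summit. Their distances ran from -578 to -331 bp with a median of -442 bp, against a median of -255.5 bp over all 688 genes (quartiles -456.5 and -144.75). Of the 688 genes, 123 (17.9%) had a summit within the members' range. The annotation gives 1 transcript for each member, with a 5′ UTR of 0 bp (vha-1), 24 bp (vha-8), 16 bp (vha-10), 2 bp (vha-12) and 8 bp (vha-13). Measured from the start codon, the summits lay at -442, -467, -407, -333 and -586 bp in the same order. In worms an annotated 5′ end is often a trans-splice site and not the place where transcription starts.

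The genes around the summits differed between members. The vha-1 summit lay in the 899 bp between vha-1 and the divergent sqv-3, which encodes a galactosyltransferase of glycosaminoglycan synthesis, at -458 bp from it, so both 5′ ends were about equally near. The vha-8 summit lay in the 585 bp between vha-8 and the divergent C17H12.2, and was nearer to that gene (-143 bp) than to vha-8 (-443 bp). The vha-12 summit had no other promoter window: the next gene upstream, mrp-6, an ABC transporter gene, has its 5′ end 4007 bp away.

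The vha-10 and vha-13 summits lay inside the gene upstream, on the same strand. The gap between trpp-8, which encodes a subunit of the TRAPP vesicle-tethering complex, and vha-10 is 103 bp, and the vha-10 summit was 287 bp inside trpp-8, in an intron and 5741 bp from the 5′ end of that gene. The gap between cept-2, a choline and ethanolamine phosphotransferase gene, and vha-13 is 226 bp. There the summit was 351 bp inside cept-2, in its last exon and 3′ UTR and 3365 bp from its 5′ end. cept-2 also had an IDR summit in its own promoter window, at rank 762. Of the 530 IDR summits in promoter windows, 74 (13.96%) lay inside a protein-coding gene, against 2 of 5 member summits (40%), and 153 (28.9%) lay in the windows of more than 1 gene, also against 2 of 5.

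Within 10000 bp of the 5′ end, vha-10 and vha-12 had 1 pooled summit each, the member peak itself. vha-1 had 4, vha-13 had 5 and vha-8 had 6, against a median of 4 for genes with an IDR promoter summit and 2 for all protein-coding genes. vha-13 had 2 IDR summits in that span and the other members 1.

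The GATA-factor motif WGATAR was present within 50 bp of the summit in 0 of the 5 members. It was present there at 150 of 530 IDR promoter summits (28.3%, exact Clopper-Pearson 95% interval 24.5 to 32.3) and at 38.9% of all IDR summits. At the members' median distance of -442 bp, 20.8% of all protein-coding genes had a match in a window of that width. The core GATA alone was there in 1 member, vha-10, at 16 bp from the summit, against 50.8% of IDR promoter summits. Of the 4 forms, TGATAA was in 0 member windows, against 15.5% of IDR promoter summits. A count over 5 sequences is small, and no match says only that the letters are not in the window.

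Farther from the summit, matches were present in some members. vha-8 had 1 WGATAR match in its peak, at 79 bp upstream of the summit. vha-13 had 3 in its peak, at 74 bp downstream and at 91 and 142 bp upstream. The nearest match was 159 bp away for vha-12, 321 bp for vha-10 and 369 bp for vha-1, all outside the peak, and that of vha-1 was 73 bp upstream of its 5′ end. Over the whole promoter window vha-13 had 5 matches, vha-8 and vha-12 had 3 each, and vha-1 and vha-10 had 1 each. The median of all protein-coding genes was 3, and 93.3% of them had at least 1.

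Other short motifs were also counted. GAGAC lay within 50 bp of the summit of vha-8 and vha-12, 2 of 5 members, against 41.9% of IDR promoter summits and 10.9% of all genes at -442 bp. vha-12 had 6 matches in its promoter window, 4 of them in the peak, and 1.53% of all genes had as many or more. GAGAC was picked after the vha-8 and vha-12 sequences had been seen, so its counts at these genes are no test of the motif. The E-box CACGTG, the core of the sites bound by the lysosomal regulator HLH-30, was absent from the promoter windows of all 5 members, and 18.4% of all protein-coding genes had one. At the summits it was found in 7.17% of IDR promoter summits.

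**Figure D4:**
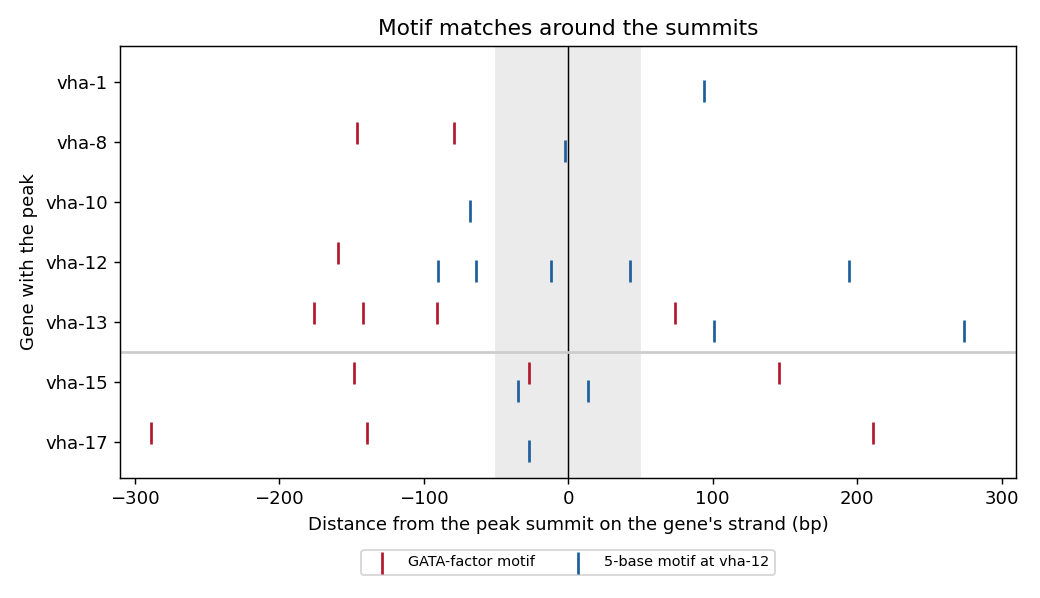
Motif matches within 300 bp of the summit, on each gene's strand (bp, negative upstream), for the 5 members and, under the line, vha-15 and vha-17. Red ticks are WGATAR, blue ticks the GAGAC motif, each at the base nearest to the summit, and the grey band is the 50 bp on each side. No red tick of a member lies in the band, and vha-15 has one at 27 bp.

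The base composition of the 101 bp around the summits varied among the members. GC content was 58.4% for vha-12, 51.5% for vha-1 and vha-13, 45.5% for vha-8 and 44.6% for vha-10. The median of IDR promoter summits was 47.5% (quartiles 41.6% and 52.5%), and that of all protein-coding genes at -442 bp was 33.7%. Of the IDR promoter summits, 8.49% had a GC content as high as vha-12 or higher.

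The genes nearest to the members in IDR signal were named by that value alone. vha-1 stood between the peak shared by scpr-1 and gpap-1 (83.1) and that of C47E8.4 (82.2). vha-8 stood between a peak shared by rps-15, a ribosomal protein gene, with F36A2.9 and that of dmd-7, all at 72.7. vha-12 stood between the peak of the mitochondrial chaperonin gene hsp-60, shared with Y22D7AL.10 (71.0), and ikke-1 (70.8). vha-13 stood between W03F8.4 (67.2) and F43H9.4 (66.9). vha-10 stood between the peak of vps-22, a gene of the ESCRT-II sorting complex, shared with C27F2.9 (41.9), and that of epn-1, the epsin gene (41.8). This likeness is 1 value in 1 list and says nothing of shared control.

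Other gene lists with a related function were set beside the V-ATPase by counts alone. Of 10 genes of the mitochondrial F-type ATP synthase, the rotary relative of the V-ATPase, 5 had a promoter summit of the IDR list, where the share of all protein-coding genes, 3.44%, would give 0.344. The strongest was atp-1 (alpha subunit), with a signal of 71.4 at rank 173 and a summit at -11 bp, followed by asb-2 with 51.9 at rank 483, and then by atp-2, atp-3 and asg-2 with 46.2, 45.0 and 41.4. asb-2 had 2 WGATAR matches within 50 bp of its summit and a replicate 2 peak in the window (signal 4.04). atp-1 had a replicate 2 peak there (signal 2.08) but no such match. atp-2, atp-3 and asg-2 had neither, and 0 of the V-ATPase members had such a match or such a peak. For comparison, 28.3% of IDR promoter summits had such a match, and 5.3% of all protein-coding genes had a replicate 2 summit in the window. By overlap, which is another measure, replicate 2 met 9.73% of all IDR peaks, in promoter windows or not. Of 28 genes of the lysosome and of lysosomal nutrient sensing, 1 had an IDR summit and 7 had a pooled one. The share of all protein-coding genes would give 0.965 with an IDR summit, so that count is at the background, and 17.9% of all genes had a pooled summit. The gene with an IDR summit was ppk-3, which encodes the kinase that makes the lysosomal lipid PI(3,5)P2, with a signal of 52.8 at rank 458 and -184 bp. Of 6 genes of apical secretion by the epidermis 0 had an IDR summit and 1 a pooled one, sec-24.1 of the COPII coat (33.2). With shares of 3.44% and 17.9% over all protein-coding genes, both counts over 6 genes lie near the background.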

How the data were processed

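The peak lists were deposited by the authors in narrowPeak layout. The authors gave each peak a signal, on a scale of its own list, and a −log10 q-value. Aligner and peak caller: not given in the sources used here. Per the deposited records, 1 list came from each replicate's alignment, 1 from both, and the IDR list from these 3. Only lists on ce11, the same assembly as WBcel235, were used. Genes came from Ensembl release 115, coordinates are 1-based, and 25 peaks of replicate 2 on mitochondrial DNA were omitted. Distances run from the annotated 5′ end to the summit, and overlap means at least 1 shared bp. Motifs were searched on both strands, each match placed at its base nearest to the summit. The searches and counts ran in Python 3.11.15 with NumPy 2.4.6 and SciPy 1.17.1, and were tested on simulated data. No p-value was computed: there is 1 group, and the members were chosen by these peaks. Members and lists were chosen with earlier results of these data known. The text names the members, every other V-ATPase gene, genes whose window or 5′ end flanks a member summit, listed genes with an IDR promoter summit, and the nearest genes by IDR signal. sec-24.1, F49C12.12 and the genes beside peaks outside the windows (such as lin-9) were named after their values were seen. Alternatives covered the window, the gene assignment, stricter lists, single replicates and motif settings.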

Additional observations from a re-analysis of the deposited data

How the results depend on the processing

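The 5 vha- genes with an IDR promoter summit were 4 with a window of 500 bp upstream to 100 bp downstream (vha-13 left), 4 with only the nearest 5′ end counted (vha-8 left), 4 in the stronger 601 peaks (vha-10 left) and 6 with any overlap of peak and window (vha-3 added). With 2000 bp upstream the count was 8, with vha-2, vha-3 and vha-5 added, in a wider window that called 4.85% of all genes. Leaving out 1 replicate gave 0 to 5: the 1202 strongest peaks of replicate 1 held the same 5 genes, and those of replicate 2 held 0, with 1.57% of all genes called. The cause was not tested. The pooled count of 12 was 7 among peaks with a −log10 q-value of at least 2, a smaller list, and 11 to 15 otherwise. Members with WGATAR at the summit, 0 in the report and with the replicate 1 summits, were 2 within 100 bp, 2 in the whole peak (vha-8 and vha-13) and 1 for the core GATA, all of which are easier to meet by construction. The members' median rank was at 14.7% of the IDR list, and at 1.79% of the replicate 1 list and 1.76% of the pooled list, which are longer. Overlap with replicate 1 (5) and replicate 2 (0) was the same with summits within 100 bp. No paired analysis was possible because there is 1 group and no test. Depth is unknown, so a missing peak in replicate 2 may be undetected, and that list also differs in peak width and lowest −log10 q-value.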

Other observations

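Some weak pooled peaks lay at the far ends of V-ATPase genes. The peak at the 3′ end of vha-13 had a signal of 27.4 at rank 2029, at -9 bp from that end and 3 bp past the 5′ end of Y49A3A.3. Near the end of vha-2 a peak with a signal of 33.14 at rank 1378 lay at -150 bp from that end, at 68 bp from the 5′ end of R10E11.6. A pooled peak at -1898 bp from vha-6 (signal 18.5) lay at -21 bp from VW02B12L.2, and vha-19 had 1 inside the gene at 887 bp (signal 20.3). A second pooled peak upstream of vha-13, at -1052 bp with a signal of 24.3, lay inside cept-2.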
